A study of Homo sapiens with 8 samples.

Results

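The genes described here are 6 mucins of airway and other epithelia, MUC1, MUC4, MUC13, MUC15, MUC16 and MUC20, with AGR2 and SPDEF, which take part in the making of mucus. They are 8 of 18377 genes that could be read from a probe set carrying their symbol alone, and they were chosen by name. Each had 1 such probe set, so no choice between probe sets was needed. A549 cells, a human lung adenocarcinoma line with features of type II alveolar epithelium, had been held at an air-liquid interface, with no medium over them, and exposed for 4 h. RNA was taken 9 h after the exposure and hybridised to 8 Affymetrix Human Gene 1.0 ST arrays, of which each of the 4 groups has 2. The groups were the primary pollutants (the labels' fresh urban mix), given in the morning, with a morning control, and the photochemically altered (PCA) pollutants (the labels' aged urban mix), given later in the day, with an evening control. Both controls were untreated cells in humidified air. The labels do not say that arrays of a group came from separate exposures, and the methods describe 1 exposure run per mixture, so p-values and errors measure the spread between arrays of a run. Each mixture has a control of its own time of day, but between the mixtures the mixture, the time of day and the run cannot be told apart.

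Mucins are large proteins whose repeated serine and threonine residues carry dense O-linked sugars. Those in this group sit in the apical membrane of epithelial cells, where their sugar-coated outer part forms a layer over the cell and can be shed, and their short inner tail can take part in signalling. Secreted mucins such as MUC5AC and MUC5B instead form the mucus gel. AGR2 is a protein disulfide isomerase of the endoplasmic reticulum, and in mice it is needed for the making of intestinal mucus. SPDEF, an ETS family transcription factor, drives the differentiation of goblet cells in mouse airway and gut.

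Levels are log2 signals after robust multichip average normalization, differences are log2 fold changes, and limma was fitted to all 8 arrays and all probe sets. A gene counted as risen or fallen where its Benjamini-Hochberg adjusted p was under 0.05 with a fold change of at least 1.5, which is 0.585 on the log2 scale. A gene entered a comparison where its signal reached 30 (4.91 on the log2 scale) on at least 1 of the arrays compared. That held for 7 of the 8 genes in every comparison and for MUC15 only where the PCA arrays took part. No permutation test was used, since 2 arrays against 2 cannot give a two-sided exact p below 0.333.

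None of the 8 genes rose or fell after either mixture. For the primary pollutants 0 of the 7 tested passed, against 0% of 17381 genes tested, and 2 of the 7 had an unadjusted p under 0.05 in limma, against 1384 of all genes (7.96%). MUC13 was the higher and AGR2 the lower of these, where 3.29% of all genes were higher and 4.67% lower at that limit. For the PCA pollutants 0 of 8 passed, against 3.53% of 17470 genes tested (153 rose and 464 fell), and 4 of 8 had an unadjusted p under 0.05 in limma, against 37% of all genes. MUC15 was higher, and MUC16, AGR2 and SPDEF were lower, where 14.5% of all genes were higher and 22.5% lower. MUC15 entered this comparison only through the PCA arrays, on which it was high, so its place in this count carries no weight. Both shares at the unadjusted limit rest on few genes and the second is near that of all genes. The 95% interval of the difference lay inside 1.5-fold either way for 7 of 7 genes after the primary pollutants and for 7 of 8 after the PCA pollutants, the exception being MUC15. A p that misses the limit does not show that a gene stayed the same. Each interval covers the spread between arrays of a run for a single gene, unadjusted for the number of genes. It leaves out the choice of normalization, which moved several values, as given below.

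**Figure D1:**
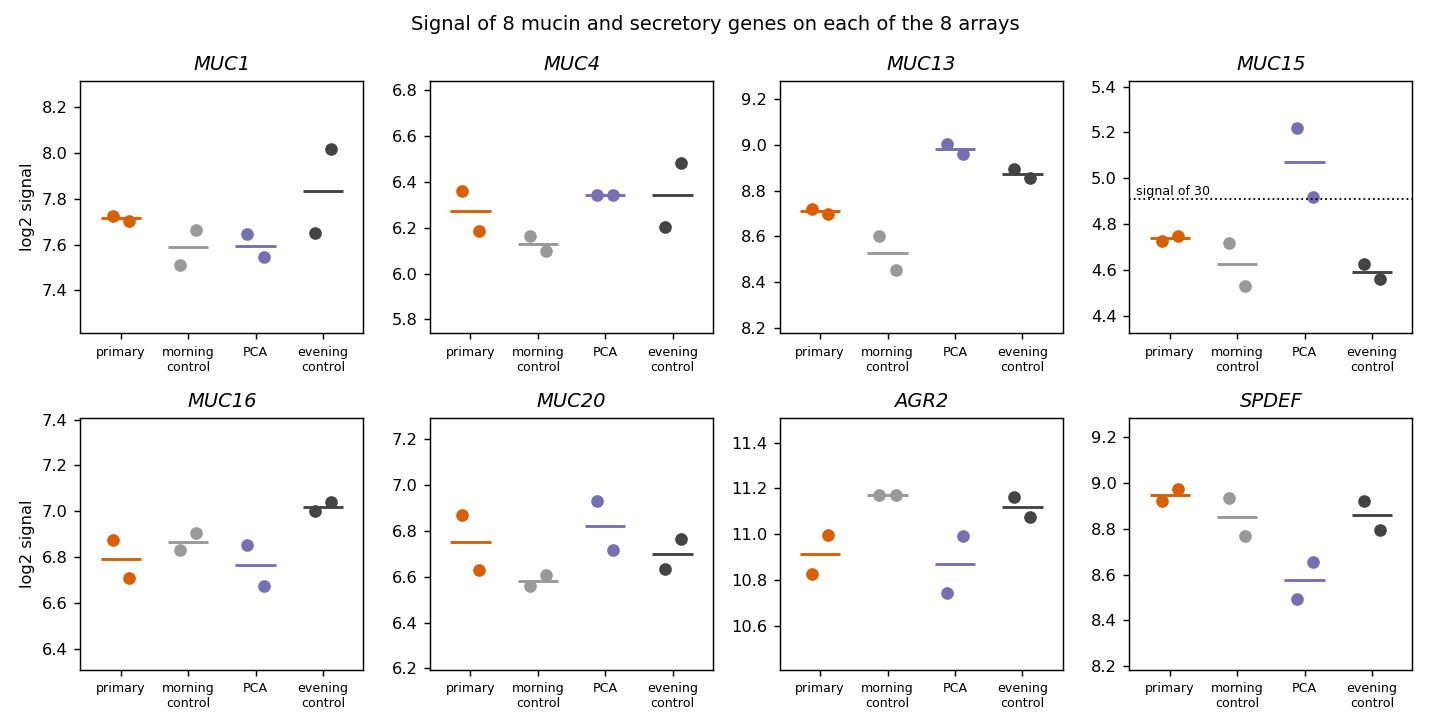
Log2 signal (vertical axis, each panel spanning the same range of 1.1) of the 8 genes on each array (points), by group, with group means as lines. Both PCA arrays are highest for MUC15 (5.22 and 4.92) and lowest for SPDEF (8.49 and 8.65), and the 4 exposed arrays are lowest for AGR2.

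The promoters of AGR2, SPDEF and MUC13 are printed because AGR2 was lower on exposed than on control arrays with both mixtures, SPDEF was lowest on the PCA arrays, and MUC13 was higher on exposed arrays with both. They are the 250 bases before the annotated start in RefSeq (GRCh38.p14), 5′ to 3′ on the minus strand, on which all 3 genes lie. Capitals mark letters that match a motif searched on both strands.
AGR2 (chr7:16805000-16805249): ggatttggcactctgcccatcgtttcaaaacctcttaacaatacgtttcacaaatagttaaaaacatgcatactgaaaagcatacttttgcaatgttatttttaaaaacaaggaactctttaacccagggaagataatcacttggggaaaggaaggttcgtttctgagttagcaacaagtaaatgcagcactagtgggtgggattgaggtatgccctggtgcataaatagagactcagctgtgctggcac
SPDEF (chr6:34556330-34556579): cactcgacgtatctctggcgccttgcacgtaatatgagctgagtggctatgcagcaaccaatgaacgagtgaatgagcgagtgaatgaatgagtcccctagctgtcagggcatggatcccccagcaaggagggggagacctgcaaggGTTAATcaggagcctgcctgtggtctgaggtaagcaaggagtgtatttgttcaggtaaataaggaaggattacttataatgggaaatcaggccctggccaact
MUC13 (chr3:124934752-124935001): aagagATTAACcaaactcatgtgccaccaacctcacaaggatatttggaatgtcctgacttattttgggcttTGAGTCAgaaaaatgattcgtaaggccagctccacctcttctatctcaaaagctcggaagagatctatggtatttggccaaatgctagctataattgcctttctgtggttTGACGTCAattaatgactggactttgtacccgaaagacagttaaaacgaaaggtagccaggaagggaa

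Motifs were searched as the AP-1 site TGAGTCA, the cyclic AMP response element TGACGTCA, the HNF1 motif GTTAAT, the forkhead motif TGTTTAC and the TATA box TATAAA, which share no overlapping match in these windows. They were chosen after the sequences had been seen. MUC13 holds the AP-1 letters at bases 178 to 172 before its start, the cyclic AMP response element at bases 68 to 61 and the HNF1 motif on the other strand at bases 245 to 240. SPDEF holds the HNF1 motif at bases 103 to 98. The AGR2 window holds none of the 5, and neither do those of MUC4 and MUC16. MUC1 holds the TATA box. Of 35114 windows of the same length, 4.2% hold the AP-1 letters, 1.65% the cyclic AMP response element, 6.23% the HNF1 motif, 2.98% the forkhead motif and 10.7% the TATA box. A match of letters is a description and not a site. Promoter entries were found for 6 of the 8 genes, MUC1 and MUC16 having 2 each, and MUC15 and MUC20 are named only.

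MUC1, on chromosome 1, codes for a membrane mucin of most glandular epithelia whose tail can be phosphorylated by growth factor receptors. Its log2 signals were 7.72 and 7.70 on the primary arrays, against 7.51 and 7.67 on the morning controls. They were 7.65 and 7.55 on the PCA arrays, against 7.65 and 8.02 on the evening controls. Both primary arrays were above their controls and both PCA arrays below theirs, although the nearest PCA and evening arrays differed by under 0.01. MUC1 had a log2 fold change of 0.13 for the primary pollutants (standard error 0.1225, adjusted p = 0.828). It was -0.24 for the PCA pollutants (standard error 0.1227, adjusted p = 0.195). The PCA response less the primary response was -0.36, with a 95% interval of -0.77 to 0.04 and an adjusted p of 0.327, so opposite signs are not shown to be a difference. The high evening array set much of the PCA value, which was -0.06 without evening control replicate 2 and -0.42 without replicate 1.

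MUC16, on chromosome 19, codes for the very large membrane mucin that carries the CA125 antigen. It read 6.87 and 6.71 on the primary arrays, against 6.83 and 6.90 on the morning controls, and these groups overlapped. It read 6.85 and 6.68 on the PCA arrays, against 7.0005 and 7.04 on the evening controls, so that both PCA arrays were lower. MUC16 had a log2 fold change of -0.08 (95% interval -0.29 to 0.14) for the primary pollutants. It was -0.26 for the PCA pollutants (standard error 0.09193, 95% interval -0.47 to -0.04, adjusted p = 0.0859). The adjusted p of the PCA value was 0.0464 with arrays centred on their medians and 0.0467 after cyclic loess normalization, with values of -0.32 and -0.33, which are under the fold limit. It was 0.318 without PCA pollutants replicate 2, where the value was -0.17, and 0.433 against the morning controls, where it was -0.10.

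MUC4 and MUC20 are neighbouring genes on chromosome 3. MUC4 carries EGF-like domains and can bind the receptor ERBB2, and MUC20 has been described as a partner of the receptor MET. MUC4 signals were 6.36 and 6.19 on the primary arrays, against 6.16 and 6.10 on the morning controls, with both primary arrays higher. They were 6.34 and 6.34 on the PCA arrays, against 6.20 and 6.48 on the evening controls, which lay on either side. The log2 fold change of MUC4 was 0.14 for the primary pollutants (standard error 0.1068, adjusted p = 0.767). For the PCA pollutants it was 0.00, with a 95% interval of -0.25 to 0.25.

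MUC20 signals were 6.87 and 6.63 on the primary arrays, against 6.56 and 6.61 on the morning controls, with both primary arrays higher. On the PCA arrays they were 6.93 and 6.72, against 6.64 and 6.77 on the evening controls, and these groups overlapped. Its log2 fold changes were 0.17 for the primary pollutants (adjusted p = 0.727) and 0.12 for the PCA pollutants (adjusted p = 0.441). Single arrays moved both, as the primary value was 0.0487 without primary pollutants replicate 1 and 0.29 without replicate 2, and the PCA value 0.0155 without PCA pollutants replicate 1 and 0.23 without replicate 2. The pseudogene MUC20P1 lies on the same chromosome, and how far its transcripts reach this probe set was not tested.

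MUC13, also on chromosome 3 but away from these, codes for a membrane mucin best known from the gut surface. It read 8.72 and 8.70 on the primary arrays, against 8.60 and 8.46 on the morning controls. On the PCA arrays it read 9.00 and 8.96, against 8.90 and 8.85 on the evening controls. Exposed arrays were the higher ones with both mixtures, and all 4 arrays of the later exposure were above all 4 of the morning exposure. The share of all genes separated in these ways was not computed. The log2 fold change was 0.18 for the primary pollutants (standard error 0.07623, 95% interval 0.0035 to 0.36, adjusted p = 0.572). It was 0.11 for the PCA pollutants (standard error 0.07631, 95% interval -0.07 to 0.29, adjusted p = 0.331). The evening control was above the morning control by 0.35 (standard error 0.07614, 95% interval 0.17 to 0.52, adjusted p = 0.999), a larger difference than with either mixture, although it did not pass over all probe sets either. Set against the morning controls instead of its own, the PCA group was higher by 0.45 (adjusted p = 0.00983), still short of the fold limit.

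MUC15, on chromosome 11, codes for a smaller membrane mucin first isolated from the fat globule membrane of bovine milk. Its log2 signals were 4.73 and 4.75 on the primary arrays, against 4.72 and 4.53 on the morning controls. They were 5.22 and 4.92 on the PCA arrays, against 4.63 and 4.56 on the evening controls. A signal of 30 was reached on the 2 PCA arrays alone, so MUC15 entered the PCA comparison through the group in which it was high, and the primary pollutants were not tested. The log2 fold change for the PCA pollutants was 0.48, a fold change of 1.393 (standard error 0.113, 95% interval 0.215 to 0.74, adjusted p = 0.0259), past the limit on p and short of the limit on fold. Of all genes tested, 19.9% passed that limit on p at any fold. Without PCA pollutants replicate 2 the value was 0.63 (adjusted p = 0.0231) and passed both limits, and without PCA pollutants replicate 1 it was 0.33 (adjusted p = 0.0872). The adjusted p was also above 0.05 without evening control replicate 1 (0.0859) and without replicate 2 (0.124). The gene ANO3 overlaps MUC15 in the annotation.

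AGR2, on chromosome 7 next to its relative AGR3, read 10.83 and 10.9953 on the primary arrays, against 11.17 and 11.17 on the morning controls. It read 10.75 and 10.99 on the PCA arrays, against 11.16 and 11.08 on the evening controls. All 4 exposed arrays were below all 4 control arrays. AGR2 had a log2 fold change of -0.26 for the primary pollutants, a fold of 0.835 (standard error 0.1023, 95% interval -0.50 to -0.02, adjusted p = 0.539). It was -0.25 for the PCA pollutants, a fold of 0.8408 (standard error 0.1025, 95% interval -0.49 to -0.01, adjusted p = 0.12). The PCA response less the primary response was 0.01, with a 95% interval of -0.33 to 0.35. Without PCA pollutants replicate 1 the PCA value was -0.13, and without replicate 2 it was -0.37. With a trended prior the adjusted p of the PCA value was 0.039, the lowest of the settings tried. Where no single array was left out, the PCA value ranged from -0.31 to -0.12. Groups that do not overlap were common with each mixture alone, in 38.7% of genes with the primary mixture (21.7% lower) and 68.3% with the PCA mixture (36.6% lower). The share of all genes with all 4 exposed arrays below all 4 controls was not computed.

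SPDEF, on chromosome 6, read 8.92 and 8.97 on the primary arrays, against 8.93 and 8.77 on the morning controls. It read 8.49 and 8.65 on the PCA arrays, against 8.92 and 8.80 on the evening controls. The primary arrays overlapped with their controls, and both PCA arrays were lower than every other array. How many of all genes had both PCA arrays lowest was not computed. The log2 fold change was 0.10 for the primary pollutants (standard error 0.0938, adjusted p = 0.827). It was -0.28 for the PCA pollutants, a fold of 0.8215 (standard error 0.09393, 95% interval -0.50 to -0.07, adjusted p = 0.0694). The PCA response less the primary response was -0.38 (standard error 0.133, 95% interval -0.69 to -0.07, adjusted p = 0.203), the smallest p of the 8 genes in that comparison. For this difference 0 of the 8 genes passed, against 0.439% of 17540 genes tested, and SPDEF alone had an unadjusted p under 0.05 in limma, against 17.6% of all genes (6.2% higher and 11.4% lower). The adjusted p of the PCA value was 0.0376 with arrays centred on their medians, 0.0251 with a trended prior and 0.0396 with a minimum signal of 100, and it was 0.239 after quantile normalization, where the value was -0.18.

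**Figure D2:**
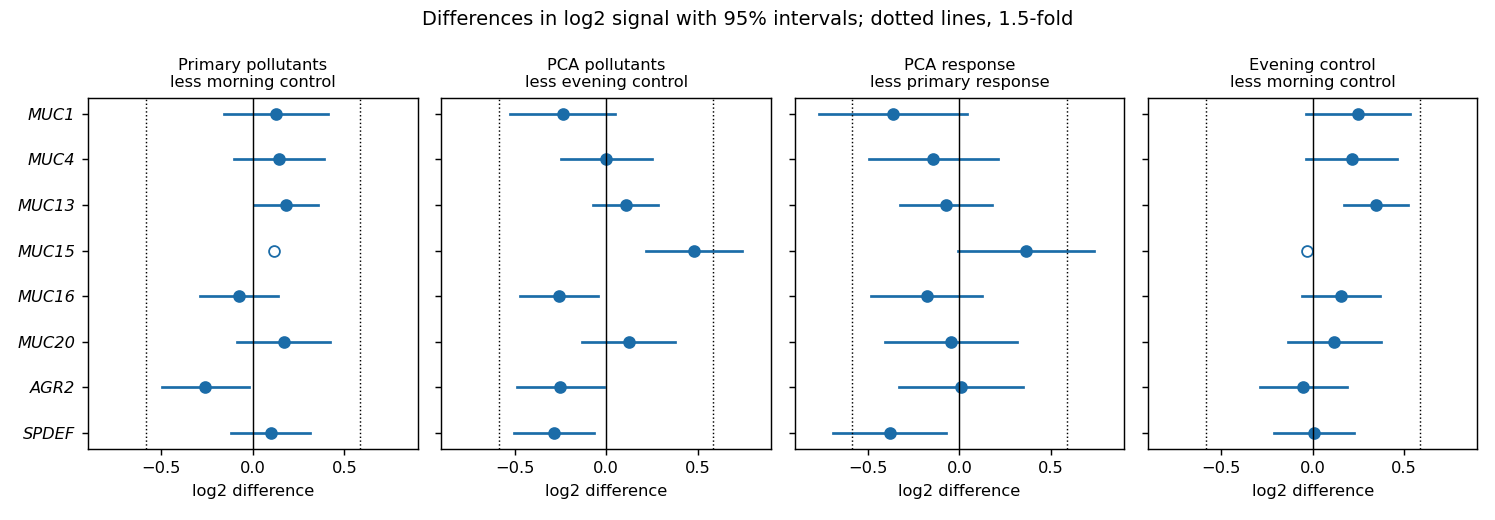
Differences in log2 signal (horizontal axis) with 95% intervals from limma for the 8 genes, in the 4 comparisons, with dotted lines at 1.5-fold either way and open circles where MUC15 was not tested. Apart from MUC15, every interval for the primary and the PCA pollutants lies between the dotted lines, while those of MUC1, MUC15 and SPDEF cross a line for the difference between responses.

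Over the 8 genes the median log2 fold change was 0.12 for the primary pollutants, against -0.00724 over all genes tested. For the PCA pollutants it was -0.119, against -0.00169, but the median of all genes varied with signal level, as given below. Both medians include MUC15, which was not tested for the primary pollutants and entered the PCA comparison only through its high PCA arrays. The PCA median therefore carries no weight, and a median without MUC15 was not computed. After the primary pollutants, of the 7 genes tested, MUC1, MUC4, MUC13 and MUC20 were higher on both exposed arrays and AGR2 was lower on both. Of all genes tested 17% were higher and 21.7% lower in this way. MUC15, under the signal limit and not tested there, was also higher on both. After the PCA pollutants MUC13 and MUC15 were higher on both arrays, and MUC1, MUC16, AGR2 and SPDEF were lower on both, where 31.7% and 36.6% of all genes were. MUC15 was tested there only because its PCA arrays were high. With each mixture some of the 8 genes lay above and some below their controls. Between the controls 0 of the 7 genes tested passed, against 0% of 17310 genes, and MUC13 alone had an unadjusted p under 0.05 in limma, against 880 of all genes (5.08%, with 2.91% higher and 2.18% lower). Both evening control arrays were above both morning controls for MUC4, MUC13, MUC16 and MUC20, and below them for AGR2. That is 5 of the 7 genes tested, against 41.7% of all genes tested (22.1% higher and 19.7% lower).

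The size of the PCA differences went along with signal level over all genes. The median log2 fold change for the PCA pollutants was 0.13 for genes under a mean signal of 30, 0.111 between log2 signals of 6 and 7, and -0.00992 between 7 and 8. It was -0.122 between 8 and 9 and -0.134 over 11. The spread of the log2 signals was narrower on the PCA arrays (SD 1.98 and 1.99) than on the other 6 (2.04 to 2.07). MUC15 lies in the lowest of these ranges, MUC4, MUC16 and MUC20 between 6 and 7, MUC1 between 7 and 8, MUC13 and SPDEF between 8 and 9, and AGR2 over 11. After quantile normalization, which gives every array the same distribution, the PCA value was 0.34 for MUC15, -0.15 for AGR2, -0.18 for SPDEF and 0.22 for MUC13, against 0.48, -0.25, -0.28 and 0.11 as deposited. It was -0.32 for MUC16, against -0.26. The same median for the primary pollutants stayed between -0.0305 and 0.0463 in all 8 ranges.

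**Figure D3:**
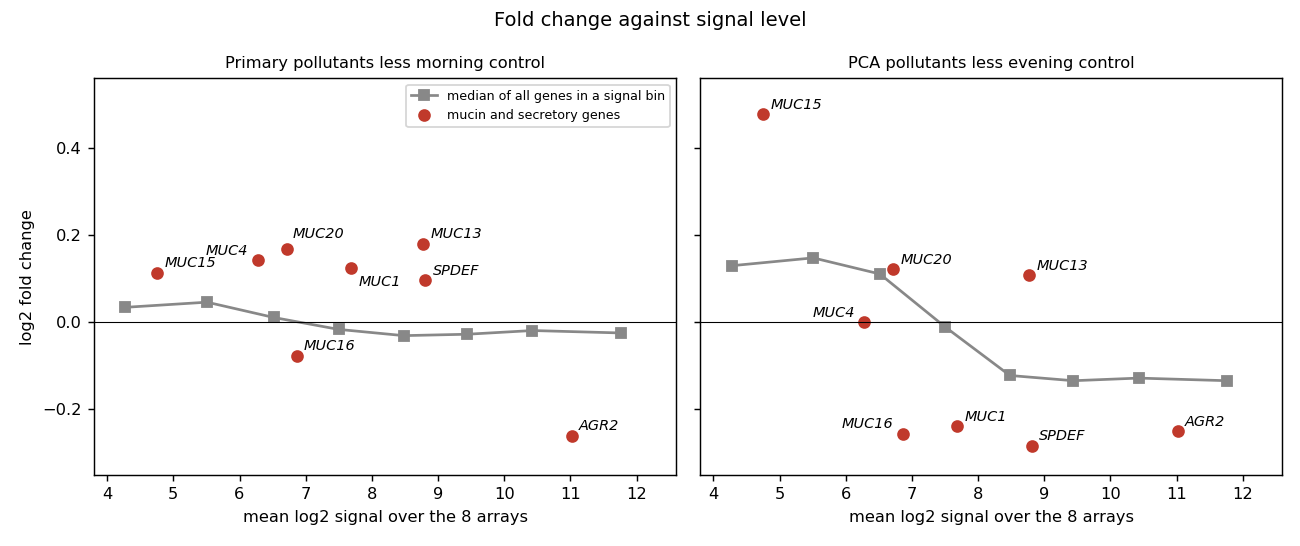
Log2 fold change (vertical axis) against the mean log2 signal over the 8 arrays (horizontal axis) for the 8 genes (red points), with the median of all genes in each range of signal (grey squares). The grey line falls across 0 between log2 signals of 7 and 8 for the PCA pollutants and stays near 0 for the primary pollutants.

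The genes whose signals were most like AGR2 over the 8 arrays, of 17310 compared, were PRKCQ, a kinase of the protein kinase C family (Pearson's r = 0.9958), STX8, a syntaxin of endosomes (0.9847), and CFAP300, a protein of cilia (0.978). Spearman's rho was 0.9524, 1 and 0.8571. These are the highest of many correlations over 8 arrays that share 4 exposure groups, and they are given as a description. PRKCQ had log2 fold changes of -0.22 with the primary and -0.21 with the PCA mixture (adjusted p = 0.596 and 0.169), and STX8 -0.24 and -0.28 (adjusted p = 0.555 and 0.0865). CFAP300 was at -0.39 and -0.35 (adjusted p = 0.608 and 0.205), and none of the 3 passed.

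Other mucin genes did not pass either, as 0 of 12 tested rose or fell after the primary pollutants and 0 of 13 after the PCA pollutants. MUC5B, a secreted gel-forming mucin of the airway, is given outside the naming rule, having been chosen after its values were seen. Its log2 signals were 9.15 and 9.14 on the primary arrays, against 9.32 and 9.58 on the morning controls, and 9.92 and 9.81 on the PCA arrays, against 9.82 and 10.20 on the evening controls. Its log2 fold changes were -0.31 and -0.14 (adjusted p = 0.595 and 0.474), and the evening control was above the morning control by 0.56 (standard error 0.1372, adjusted p = 0.999). For MUC5B, as for MUC13, the difference between the controls was larger than with either mixture. After the PCA pollutants MUC19, a gel-forming mucin, was at 0.42 (adjusted p = 0.0296), the small mucin MUCL1 at 0.36 (adjusted p = 0.0331) and CD164, a sialomucin, at -0.31 (adjusted p = 0.0407), all short of the fold limit. MUC5AC and MUC22 were not analysed here.

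Transcription factors of secretory epithelium held genes that fell after the PCA pollutants. Of 18 tested, 0 rose, 3 fell and 15 missed the limits, where 3.53% of all genes were called (153 rose and 464 fell of 17470). Their median log2 fold change was -0.122, against -0.00169 over all genes. The median of all genes varied with signal level, as given above. Neither this list nor those that follow were matched on signal level, so their medians do not show a change particular to them. All were drawn up with earlier results of these data known, so their counts of called genes do not show it either. ELF3, an ETS factor of epithelia and a relative of SPDEF, read 8.37 and 8.42 on the PCA arrays, against 9.23 and 9.22 on the evening controls, and fell by 0.83 (standard error 0.07045, adjusted p = 0.00108). STAT6, which carries interleukin-4 and interleukin-13 signals, read 9.02 and 8.97 on the PCA arrays, against 9.61 and 9.58 on the evening controls, and fell by 0.60 (standard error 0.06754, adjusted p = 0.00246). XBP1, a factor of the unfolded protein response and of secretory cells, read 10.66 and 10.90, against 11.37 and 11.43, and fell by 0.62 (standard error 0.0966, adjusted p = 0.00667). ELF3 was called under all 19 other settings tried. STAT6 and XBP1 were called under 14 of 19 and stayed lower under all. Against the morning controls STAT6 was at -0.44 and XBP1 at -0.46, both short of the fold limit. After cyclic loess normalization they were at -0.47 and -0.49, also short of it. STAT6 was at -0.49 after quantile normalization, -0.58 without evening control replicate 1 and -0.57 without PCA pollutants replicate 2. XBP1 was at -0.54 after quantile normalization, -0.59 without evening control replicate 2 (adjusted p = 0.0504) and -0.51 without PCA pollutants replicate 1.

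Among enzymes that build the O-linked sugars of mucins, 28 were tested, 0 rose, 1 fell and 27 did not pass after the PCA pollutants. This was near the 3.53% of all genes called, with a median of -0.0138 against -0.00169. GALNT4, which the paper lists as lowered by the PCA pollutants, and GCNT1 were not analysed here. GALNT12, which adds the first sugar, read 6.78 and 6.58 on the PCA arrays, against 7.36 and 7.29 on the evening controls, and fell by 0.65 (standard error 0.09318, adjusted p = 0.00527). It was short of the fold limit against the morning controls (-0.57) and without PCA pollutants replicate 2 (-0.54). Its relatives GALNT11 and GALNT7 were at -0.50 and -0.44 (adjusted p = 0.00667 and 0.00676) and did not pass on fold. In the protein disulfide isomerase family, to which AGR2 belongs, 16 were tested, 0 rose, 1 fell and 15 missed the limits, where 3.53% of all genes were called. Their median was -0.128, against -0.00169. PDIA3 and TXNDC5 of this family were not analysed here. TXNDC16 read 4.90 and 4.96 on the PCA arrays, against 5.65 and 5.68 on the evening controls, and fell by 0.74 (standard error 0.1066, adjusted p = 0.00529), near the lower limit of signal. TMX4 and PDIA5, of the same family, were at -0.53 and -0.36 (adjusted p = 0.00579 and 0.0217), short of the fold limit.

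Among proteases that shed mucins and partners that bind them, 13 were tested, 0 rose, 2 fell and 11 missed the limits after the PCA pollutants, where 3.53% of all genes were called, with a median of 0.0124 against -0.00169. ERBB3, a receptor that pairs with ERBB2, read 7.41 and 7.55 on the PCA arrays, against 8.61 and 8.80 on the evening controls, and fell by 1.22 (standard error 0.09561, adjusted p = 0.000935). ERBB2, the receptor bound by MUC4, read 8.31 and 8.25 on the PCA arrays, against 9.08 and 9.12 on the evening controls, and fell by 0.82 (standard error 0.06972, adjusted p = 0.00108). Both were called under all 19 other settings tried, while the log2 fold change of MUC4 itself was 0.00. ADAM17, a protease that sheds membrane proteins, was at -0.45 (adjusted p = 0.0072). Among products of secretory and goblet cells, 24 were tested, 1 rose, 0 fell and 23 missed the limits, near the 3.53% of all genes called. Their median was 0.194, against -0.00169. CEACAM5, the carcinoembryonic antigen, read 8.60 and 8.53 on the PCA arrays, against 7.92 and 7.9972 on the evening controls, and rose by 0.61 (standard error 0.07253, adjusted p = 0.0028). It was short of the fold limit without evening control replicate 1 or PCA pollutants replicate 1 (0.57 each) and with arrays centred on their medians (0.55). The airway secretory proteins BPIFB1 and SLPI were at -0.47 and -0.40 (adjusted p = 0.0161 and 0.0318). None of the genes of these lists passed for the primary pollutants or between the controls. From the same arrays, the paper also lists ELF3, STAT6, XBP1, GALNT12, TXNDC16, ERBB2 and ERBB3 as lowered by the PCA pollutants and CEACAM5 as raised.

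**Figure D4:**
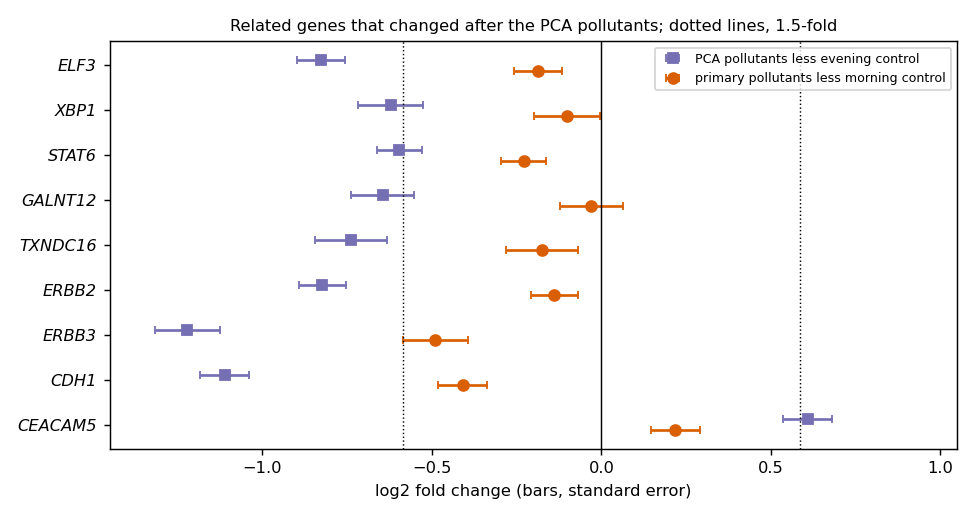
Log2 fold change with standard error (horizontal axis) of the 8 genes of the related lists that changed after the PCA pollutants, and of the epithelial marker CDH1, for the PCA pollutants (squares) and the primary pollutants (circles), with dotted lines at 1.5-fold. All squares lie beyond a dotted line, CEACAM5 to the right and the others to the left, and no circle does.

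Markers were read to check the cell type. All 6 markers of simple epithelium reached a signal of 30, among them KRT8 and KRT18 with means of 13.60 and 13.87. Of 7 alveolar type II markers with a value all reached 30, with means from 5.68 (SLC34A2) to 7.66 (ABCA3). The surfactant protein genes SFTPB and SFTPC had means of 6.38 and 6.30, and SFTPD of 7.31. SFTPA1 was not analysed here. All 5 endothelial markers, which A549 cells should lack, also reached 30 (means of 5.41 to 5.95), so that this limit alone does not mark an expressed gene. Of 7 goblet cell markers 6 reached 30, and CLCA1 did not. The simple epithelium markers summed to a signal (not on the log scale) of 25320 to 31860 on the primary arrays, against 31780 to 32870 on the morning controls, and the goblet cell markers, SPDEF and MUC5B among them, to 1549 to 1576, against 1620 to 1676. The sum of the simple epithelium markers was 26880 to 27770 on the PCA arrays, against 29820 to 31370 on the evening controls, and that of the goblet cell markers 1834 to 1844, against 1894 to 2191. CDH1, E-cadherin, was the 1 epithelial marker that fell after the PCA pollutants, by 1.11 (adjusted p = 0.000665), and the paper also lists it as lowered. The leukocyte markers summed to 1085 to 1111 on the PCA arrays, against 1044 to 1078 on the evening controls, and 5 of these 6 reached 30, CD68 with a mean of 9.58, while PTPRC, their defining gene, did not (4.38). Of the same list CD3E had a mean of 5.51, and ITGAM, CD79A and CD14 had 6.34, 6.42 and 6.83. MUC4, MUC16 and MUC20 read near ITGAM, CD79A and CD14 (6.10 to 7.04), so their signals do not show that they were expressed. In these bulk samples fewer cells that express a gene and less RNA per cell cannot be told apart, and the part of the markers in the values of the 8 genes was not tested.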

How the data were processed

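RNA of A549 cells was measured on 8 arrays. The deposited values are log2 signals of 28869 probe sets, which the authors normalized by robust multichip average, and the submitters' processing notes name Partek 6.4. No normalization was added for the main values. Groups came from the labels. Symbols came from the platform annotation, and chromosomes and promoters from RefSeq (GRCh38.p14).

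Group means were fitted in limma 3.58.1 (R 4.3.3; lmFit, contrasts.fit and eBayes), with Benjamini-Hochberg adjustment over all probe sets tested. The 4 comparisons were each mixture less its own control, the PCA response less the primary response, and the evening less the morning control. Standard errors of log2 fold changes had a median of 0.0908 with the primary and 0.091 with the PCA mixture, and the number of arrays limits the precision. The fit was tested on simulated data.

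The 8 genes and the lists were chosen with earlier results of these data known. Besides the 8 genes, up to 3 genes of each list with the smallest p for the PCA pollutants are named, and for AGR2 the 3 most correlated genes. Markers are given as counts and ranges. KRT8, KRT18, SFTPB, SFTPC, SFTPD, ABCA3, SLC34A2, CLCA1, PTPRC, CD68, CD3E, ITGAM, CD79A, CD14 and CDH1 were named after their values were seen. Alternatives covered the filter, normalization, arrays fitted, prior, test, controls, replicate numbers and each array left out. Of these, cyclic loess normalization was chosen after the data had been seen. Figures were made in Python 3.11.15 with matplotlib 3.10.9.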

Additional observations from a re-analysis of the deposited data

Results flagged for a closer look

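The PCA response differed from the primary response for the receptor ERBB2 and the adhesion protein CDH1, where 0.439% of 17540 genes tested were called. Mixture, time of day and run cannot be told apart here. A difference between responses also takes in the one between the controls. The evening control was above the morning control by 0.16 for ERBB2 and 0.24 for CDH1. ERBB2 had means of 8.28 on the PCA and 8.80 on the primary arrays, and CDH1 of 9.24 and 9.71. The PCA response less the primary response was -0.68 for ERBB2 (standard error 0.09864, adjusted p = 0.0392) and -0.70 for CDH1 (adjusted p = 0.0392). Both differences passed under 4 of 17 other settings and kept their sign under all 17. Their adjusted p was above 0.05 whichever array was left out, from 0.0722 without primary pollutants replicate 1 to 0.205 for ERBB2 and 0.208 for CDH1 without morning control replicate 2.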

How the results depend on the processing

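Of the 8 genes, 0 passed in each of the 4 comparisons under every other setting that could be run, except that MUC15 passed for the PCA pollutants without PCA pollutants replicate 2, so that the count ranged from 0 to 1 as single arrays were left out. With a minimum signal of 100 MUC4 and MUC15 were not tested. Across 20 settings, 8 of which leave out an array, 591 of 616 single values kept their sign, and 21 of 32 values did so throughout. With the controls exchanged, the primary value was -0.12 for MUC1, -0.0704 for MUC4 and -0.16 for MUC13, and the PCA value of MUC1 was 0.0064. The PCA value of MUC4 was -0.06 with arrays centred on their medians, -0.10 after quantile and -0.13 after cyclic loess normalization. The difference between responses was -0.0325 for AGR2 after median centring, and for MUC13 0.0233 after quantile and 0.0091 after cyclic loess normalization. SPDEF between the controls was -0.0045 after median centring. As single arrays were left out, MUC16 ranged from -0.16 to 0.0053 for the primary pollutants and MUC4 from -0.14 to 0.14 for the PCA pollutants. The difference between responses ranged from -0.15 to 0.0011 for MUC13, from -0.17 to 0.0736 for MUC20 and from -0.11 to 0.13 for AGR2. Between the controls MUC15 ranged from -0.13 to 0.0637 and SPDEF from -0.0762 to 0.0882. The cause of these sign changes was not tested. Over all genes, limma called 617 for the PCA pollutants and 486 to 773 under other settings. It called 77 for the difference, against 16 with no filter, 247 with a minimum signal of 100, 278 with a trended prior, 315 by an unadjusted and 1 by an adjusted analysis of variance, 2 with the replicate block, and 0 to 3 as each array was left out (0 for 6 of the 8 arrays). For the primary pollutants it called 0, against 6 with a trended prior, 14 by an unadjusted analysis of variance and 25 with the controls exchanged. Same-numbered arrays did not deviate together (r of -0.124 to 0.0545). The labels do not say whether the numbers pair the arrays, and with 2 arrays per group this check cannot exclude it. With the replicate block 0 of the 8 genes passed in each comparison, while 612 genes were called for the PCA pollutants and 2 for the difference, where ERBB2 and CDH1 were no longer called (adjusted p = 0.0953 and 0.0915). The difference cannot be fitted on the arrays of 1 exposure alone, and exchanged controls were run for the exposures only. Having 2 arrays per group limits every value, and MUC15 was under a signal of 30 on 6 of the 8 arrays. MUC4, MUC16 and MUC20 read near some leukocyte markers, so small differences in them do not show steady expression.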
